A study of Rattus norvegicus with 6 samples.

Results

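The genes described here are 8 enzymes of glycolysis and 2 hypoxia-responsive genes in rat glomeruli, the filtering units of the kidney. The 10 symbols were chosen with earlier results of these data known. Every rat gene ID that the authors' tables pair with HK1, HK2, ALDOA, TPI1, PGK1, ENO1, PKM, LDHA, NDRG1 or VEGFA was kept. That gave 14 gene IDs of 10 symbols out of 26319 genes in the count table, because TPI1 and ENO1 each have 2 IDs and PKM has 3. All 14 passed the filter on low counts and entered the tests. The tables use human symbols in capitals for these rat genes.

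The study asked how an inhibitor of the cation channel TRPC5 acts in a rat model of progressive kidney disease. Its RNA came from glomeruli of Sprague Dawley rats in 3 groups of 2 libraries. The first group carried AT1R Tg, a transgene for the angiotensin II type 1 receptor, and received AC1903, the TRPC5 inhibitor, at 23.0 and 20.4 weeks of age (AC1903 rats, replicates 1 and 2). The second carried the same transgene and received vehicle, at 20.4 and 17.4 weeks (vehicle rats). The third was wild type and, by its treatment label, also had vehicle, at 20.4 and 21.9 weeks (WT rats). The labels do not state which promoter or cell type drives the transgene, nor the dose and length of treatment. No group of wild-type rats with AC1903 was analysed here, so the inhibitor was compared only on the transgenic background.

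Glycolysis splits glucose into pyruvate in the cytosol and yields ATP without oxygen. Hexokinases trap glucose, aldolase and triosephosphate isomerase make and interconvert triose phosphates, phosphoglycerate kinase and pyruvate kinase make ATP, and lactate dehydrogenase turns pyruvate into lactate. When oxygen is low, the transcription factors HIF-1 and HIF-2 escape degradation and raise many of these enzymes together with VEGFA. In the glomerulus, podocytes make VEGFA for the endothelium beside them. Proximal tubule cells, which surround the glomeruli in the kidney cortex, make glucose and burn mainly fatty acids, and they use the pyruvate kinase PKLR in place of PKM.

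Total expected counts were 12325515 and 12637582 in AC1903 rats, 13464600 and 14230770 in vehicle rats and 25045081 and 36026772 in WT rats, so depth differed with genotype. Levels are TMM-normalised counts-per-million units (CPM), which can be compared between libraries for 1 gene but, without transcript lengths, not between genes. Podocyte markers were strong in every library, with NPHS1 between 1271 and 2361 CPM. Proximal tubule markers were also present in every library, with none of 20 at 0. Their summed level was 6571 and 6517 CPM in AC1903 rats, 6364 and 12251 in vehicle rats and 4435 and 2778 in WT rats. It was highest in vehicle replicate 2 and lowest in WT replicate 2, and all 4 transgenic libraries lay above both WT libraries. The podocyte marker sum was 11328 and 14851 CPM in AC1903 rats, 18617 and 9961 in vehicle rats and 17175 and 14747 in WT rats, and vehicle replicate 2 was the lowest library. That library also had the largest share of counts in mitochondrially encoded genes, 40.5%, where the others had 22.3 to 33.95%. The 2 rat genes paired with AGTR1, the receptor itself, were not higher in the transgenic libraries. ENSRNOG00000018346 stood at 56.1 and 70.6 CPM in AC1903 rats, 87.8 and 89.9 in vehicle rats and 85.3 and 112 in WT rats, and whether the transgene's own sequence is counted in these genes was not tested. In bulk RNA, fewer cells of a type and less RNA per cell cannot be told apart.

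In vehicle rats against WT rats, 4 of the 10 genes had an unadjusted edgeR p under 0.05, all with higher levels in vehicle rats. They were NDRG1, ENO1, TPI1 and PGK1, with log2 changes of 1.03, 0.71, 0.61 and 0.48. LDHA, PKM and HK1, which act in the same pathway, lay between -0.20 and -0.04, and VEGFA was at -0.30. None of the 14 IDs passed an adjusted p of 0.05 in edgeR's quasi-likelihood test over all genes, where 0.0745% of 13426 genes passed. DESeq2 called TPI1, ENO1 and NDRG1, at a background of 4.17%. The authors' deposited table, where 4.42% of 12321 genes passed, called the same 3 genes. With 2 libraries against 2, no permutation of the labels can give a p under 0.3333.

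Promoter sequences are shown for TPI1 and LDHA, a member that DESeq2 called and a member with a log2 change close to 0. Both are the 250 bases before the annotated start from RefSeq on GRCr8, a newer build than Rnor_5.0, on which the counts were made. RefSeq promoter windows of 300 bases, running to 50 bases after the start, were matched by symbol for 8 of the 10 genes, as 13 windows; PGK1 and NDRG1 were not matched. A core motif of HIF binding, ACGTG, was searched on both strands (CACGT on the printed strand is a reverse-strand match) and is in capitals. The TPI1 stretch lies at chr4:159305089-159305338 on the minus strand and the LDHA stretch at chr1:106507842-106508091 on the plus strand.
TPI1: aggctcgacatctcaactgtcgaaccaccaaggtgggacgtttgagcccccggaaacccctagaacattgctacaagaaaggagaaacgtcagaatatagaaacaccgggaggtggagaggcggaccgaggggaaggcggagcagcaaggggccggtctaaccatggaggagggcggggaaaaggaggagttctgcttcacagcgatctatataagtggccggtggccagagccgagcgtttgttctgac
LDHA: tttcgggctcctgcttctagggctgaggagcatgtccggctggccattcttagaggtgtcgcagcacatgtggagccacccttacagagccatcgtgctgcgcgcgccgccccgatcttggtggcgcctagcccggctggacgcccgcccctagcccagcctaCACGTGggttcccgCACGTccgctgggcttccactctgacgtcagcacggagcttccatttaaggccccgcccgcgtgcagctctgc
TPI1 held no match in its window, and LDHA held 3, of which 2 overlap as the palindrome CACGTG. Single matches were found in windows of HK1, ALDOA and ENO1, so that 4 of 13 windows held the motif, where 19.3% of 33469 rat promoter windows of this length do. GCGTG, also searched on both strands but not put in capitals, was in the LDHA window and both ENO1 windows. It was in no other member window, and 29.7% of all windows held it. A match is a string of letters and not a bound site, and no match says only that these letters are not in this window.

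Triosephosphate isomerase (TPI1, ENSRNOG00000015290), which interconverts the 2 triose phosphates that aldolase makes, measured 274 and 287 CPM in AC1903 rats, 312 and 383 in vehicle rats and 222 and 233 in WT rats. The 3 groups did not overlap: vehicle rats were highest, WT rats lowest and AC1903 rats between them. Vehicle rats averaged 347 ± 50.5 CPM and WT rats 228 ± 7.65 CPM (SD, n = 2 each), a 1.52-fold difference with log2 change 0.61 (SE 0.17). The edgeR adjusted p was 0.201, that of DESeq2 0.0151, and the authors' deposited table gave 0.01645. Its second ID, ENSRNOG00000033307, held 2.07 to 3.87% of the counts of the symbol and had 7.67 and 9.80 CPM in AC1903 rats, 9.75 and 15.4 in vehicle rats and 7.11 and 4.92 in WT rats. It had the same order of groups, except that AC1903 replicate 2 and vehicle replicate 1 lay side by side.

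Phosphoglycerate kinase (PGK1, ENSRNOG00000002467), the first ATP-making step, measured 229 and 242 CPM in AC1903 rats, 275 and 339 in vehicle rats and 215 and 225 in WT rats. Vehicle rats again lay above the other groups, while AC1903 and WT rats were close to each other. Vehicle rats averaged 307 ± 45.1 CPM and WT rats 219.7 ± 7.13 CPM (SD, n = 2 each). The log2 change was 0.48 (SE 0.17), with an adjusted p of 0.293 in edgeR, 0.0853 in DESeq2 and 0.08882 in the authors' deposited table, so it was called by none of them.

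Enolase 1 (ENO1, ENSRNOG00000017895), which makes phosphoenolpyruvate, measured 549.8 and 549 CPM in AC1903 rats, 586 and 884 in vehicle rats and 494 and 402 in WT rats. Vehicle replicate 2 stood far above its partner, which lay close to both AC1903 libraries. The group means were 735 ± 211 CPM in vehicle rats and 448 ± 65.5 CPM in WT rats (SD, n = 2 each). The log2 change was 0.71 (SE 0.24), with an adjusted p of 0.255 in edgeR and 0.0475 in DESeq2. The authors' deposited table gave 0.04739. Without vehicle replicate 2 the log2 change was 0.39, and without vehicle replicate 1 it was 0.98. The second ID, ENSRNOG00000028543, held 2.12 to 2.74% of the counts of the symbol and had 12.9 and 15.4 CPM in AC1903 rats, 15.7 and 24.9 in vehicle rats and 13.7 and 8.72 in WT rats.

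NDRG1 (ENSRNOG00000007393), a protein induced by hypoxia and by differentiation and known as a marker of HIF activity, had the largest log2 change of the 3 members that DESeq2 called. It measured 556 and 483 CPM in AC1903 rats, 449.8 and 553 in vehicle rats and 323 and 167 in WT rats. All 4 transgenic libraries lay above both WT libraries, and the WT libraries themselves were far apart. Vehicle rats averaged 501 ± 72.9 CPM and WT rats 245 ± 110.3 CPM (SD, n = 2 each), a 2.05-fold difference. The log2 change was 1.03 (SE 0.30), with an adjusted p of 0.203 in edgeR and 0.0184 in DESeq2. The authors' deposited table gave 0.01761. The size hung on the WT libraries: it was 1.58 without WT replicate 1 and 0.63 without WT replicate 2.

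**Figure D1:**
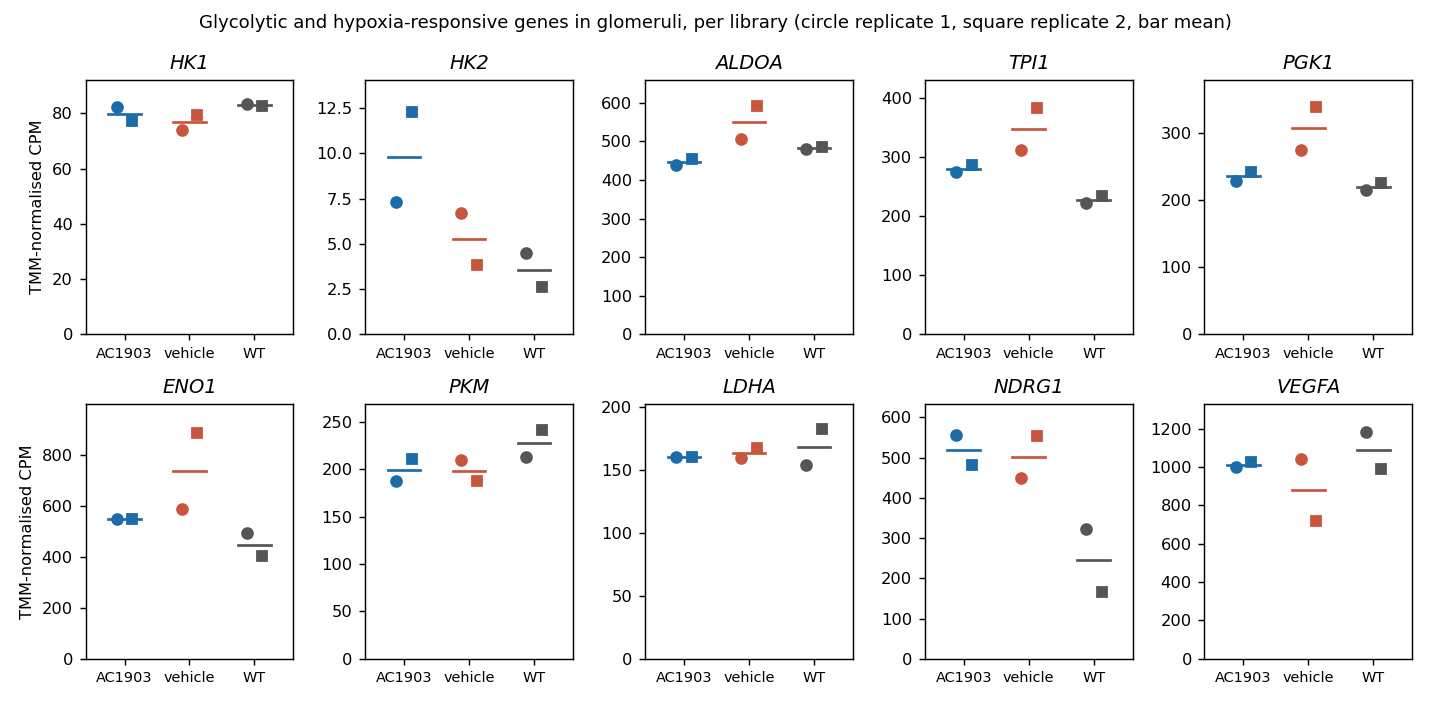
TMM-normalised CPM of the 10 genes (the ID with most counts of each symbol) in glomeruli of AC1903, vehicle and WT rats, with each axis starting at 0; circles are replicate 1, squares replicate 2 and bars the mean of 2. TPI1, PGK1, ENO1 and NDRG1 lie above WT in all 4 transgenic libraries, and vehicle replicate 2 is the highest library for ALDOA, TPI1, PGK1 and ENO1 and the lowest for VEGFA.

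ALDOA, HK1, PKM and LDHA had log2 changes closer to 0 between vehicle and WT rats. Aldolase A (ALDOA, ENSRNOG00000023647) measured 439 and 455 CPM in AC1903 rats, 506 and 592 in vehicle rats and 479 and 486 in WT rats. Its log2 change between vehicle and WT rats was 0.19 (SE 0.18), with an edgeR adjusted p of 0.748. Hexokinase 1 (HK1, ENSRNOG00000046891), the constitutive hexokinase, varied little, at 82.4 and 77.3 CPM in AC1903 rats, 74.1 and 79.4 in vehicle rats and 83.3 and 82.8 in WT rats.

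Pyruvate kinase M (PKM, ENSRNOG00000011329), which makes pyruvate and ATP, measured 188 and 211 CPM in AC1903 rats, 209.6 and 187 in vehicle rats and 213 and 241 in WT rats. All 4 transgenic libraries lay below both WT libraries, by a log2 change of -0.20 (SE 0.16) in vehicle rats (edgeR adjusted p = 0.709). Its 2 other IDs, ENSRNOG00000026519 and ENSRNOG00000047276, stayed between 0.99 and 3.01 CPM in every library and carried no call. Lactate dehydrogenase A (LDHA, ENSRNOG00000013009), the muscle-type subunit that favours lactate formation, measured 160.2 and 161 CPM in AC1903 rats, 159.8 and 168 in vehicle rats and 154 and 182 in WT rats. The WT libraries enclosed the 4 transgenic ones, and the log2 change in vehicle rats was -0.04 (SE 0.16), with a 95% interval of -0.40 to 0.32.

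Hexokinase 2 (HK2, ENSRNOG00000006116), the inducible hexokinase, had group means in the order AC1903, vehicle, WT, from low counts. It measured 7.32 and 12.3 CPM in AC1903 rats, 6.72 and 3.83 in vehicle rats and 4.49 and 2.63 in WT rats. The vehicle and WT libraries overlapped, and the log2 change between them was 0.58 (SE 0.44), with an edgeR adjusted p of 0.679. It was 0.11 without vehicle replicate 1 and 0.92 without vehicle replicate 2, and 1.00 without WT replicate 1 and 0.23 without WT replicate 2. VEGFA (ENSRNOG00000019598), the growth factor that podocytes supply to the glomerular endothelium, measured 998 and 1025 CPM in AC1903 rats, 1043 and 719 in vehicle rats and 1184 and 992 in WT rats. Vehicle replicate 2 stood below the other 5 libraries, and it also had the lowest podocyte marker sum. The log2 change was -0.30 (SE 0.24), with an edgeR adjusted p of 0.682. Without vehicle replicate 2 it was -0.06, and without vehicle replicate 1 it was -0.60.

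Counted over the 14 IDs, 6 had an unadjusted edgeR p under 0.05 between vehicle and WT rats. They were both IDs of TPI1, both of ENO1, PGK1 and NDRG1, and all 6 were higher in vehicle rats; of all genes, 11.9% passed that threshold, 8.57% as higher and 3.35% as lower. In 8 IDs both vehicle libraries lay above both WT libraries, against 20.6% of all genes. In 2 they lay below, against 23.3%. In all, 10 of the 14 log2 changes were above 0, beside 46.6% of all genes. The median log2 change was 0.53 over the 14 IDs and 0.33 over the main ID of each symbol, beside -0.03 over all genes tested. The copies of 1 enzyme share sequence and are not separate evidence. The genes were chosen with earlier results of these data known, so these counts describe the set and do not test it.

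AC1903 rats were then compared with vehicle rats, which are also the rats set against WT above, so the 2 comparisons share their vehicle libraries. No member passed in edgeR, where no gene of 13426 passed (0%), and none in DESeq2, where 0.499% did. No member had an unadjusted edgeR p under 0.05, against 8.12% of all genes (5.35% higher and 2.77% lower). The smallest DESeq2 p of a member was that of PGK1, 0.0272 before adjustment and 0.510 after it. In the authors' deposited table, where 0.378% of 12182 genes passed, the adjusted p was 0.9505 for PGK1 and 0.9223 for HK2. Counting copies, 6 of 14 IDs had both AC1903 libraries below both vehicle libraries, against 18.4% of all genes, and TPI1, PGK1, ENO1 and ALDOA were among them. HK2 was the 1 ID with both AC1903 libraries above, against 19.9% of all genes.

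PGK1 had the smallest edgeR p, 0.0549 before adjustment. Its mean was 235 ± 9.22 CPM in AC1903 rats and 307 ± 45.1 CPM in vehicle rats (SD, n = 2 each). Its log2 change was -0.38 (SE 0.17), with an edgeR adjusted p of 0.612. TPI1 averaged 280.2 ± 8.89 CPM in AC1903 rats and 347 ± 50.5 CPM in vehicle rats, a log2 change of -0.31 (SE 0.17). For ENO1 the means were 549 ± 0.553 CPM in AC1903 rats and 735 ± 211 CPM in vehicle rats, and the log2 change was -0.42 (SE 0.24). ALDOA followed at -0.30 (SE 0.18). The edgeR adjusted p lay between 0.612 and 0.664 for these 4 enzymes. These differences narrowed with age in weeks as a covariate, to -0.15 for TPI1, -0.22 for PGK1 and -0.04 for ENO1. Vehicle replicate 2 was the youngest rat. Between vehicle and WT rats the same covariate gave the lowest log2 change of any setting for the second IDs of TPI1 and ENO1. These were 0.58 in place of 1.06, and 0.39 in place of 0.86. The main IDs of TPI1, PGK1 and ENO1 were instead lowest without vehicle replicate 2, at 0.45, 0.32 and 0.39 between vehicle and WT rats. Without vehicle replicate 2 the AC1903 against vehicle changes were -0.16 for TPI1, -0.23 for PGK1, -0.10 for ENO1 and -0.19 for ALDOA. Without vehicle replicate 1 they were -0.45, -0.53, -0.69 and -0.41, in the same order.

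HK2 was higher in both AC1903 libraries, at 9.82 ± 3.53 CPM in AC1903 rats and 5.27 ± 2.05 CPM in vehicle rats (SD, n = 2 each). AC1903 replicate 2 was the highest library, as it was for the macrophage marker sum, which stood at 199 and 302 CPM in AC1903 rats, 116 and 147 in vehicle rats and 121 and 199 in WT rats. The part of macrophages in the HK2 values was not tested. The log2 change was 0.89 (SE 0.44), with a 95% interval of -0.12 to 1.90 and an edgeR adjusted p of 0.637. It was 0.44 without AC1903 replicate 2 and 0.54 without vehicle replicate 2, and 1.36 without vehicle replicate 1. NDRG1 averaged 519 ± 52.0 CPM in AC1903 rats and 501 ± 72.9 CPM in vehicle rats, and the groups overlapped. Its log2 change was 0.05 (SE 0.30), with a 95% interval of -0.63 to 0.73, which leaves room for a change of either sign. LDHA, PKM, HK1 and VEGFA had log2 changes of -0.03, 0.01, 0.06 and 0.20. Over the 14 IDs 5 were positive and 9 negative (47.9% of all genes were positive), with a median of -0.19 beside -0.02 over all genes. The proximal tubule markers were lower too, with 20 of 20 negative and a median of -0.39, none of them called in edgeR or DESeq2, and their part in these differences was not tested.

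Against WT rats, which are the same libraries as in the first comparison, AC1903 rats had 2 members with an unadjusted edgeR p under 0.05. They were HK2 and NDRG1, both higher, where 11.1% of all genes passed, 6.92% as higher and 4.2% as lower. Neither passed after adjustment in edgeR, as 0.0372% of all genes did. NDRG1 averaged 519 ± 52.0 CPM in AC1903 rats and 245 ± 110.3 CPM in WT rats (SD, n = 2 each), a 2.12-fold difference. Its log2 change was 1.09 (SE 0.30), with an adjusted p of 0.340 in edgeR and 0.0295 in DESeq2, whose background was 1.35%. It was 1.63 without WT replicate 1 and 0.68 without WT replicate 2. Summed markers of the loop, distal tubule and collecting duct stood beside it at 721 and 679 CPM in AC1903 rats, 492 and 507 in vehicle rats and 507 and 446 in WT rats, and their part in the NDRG1 values was not tested.

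HK2 averaged 9.82 ± 3.53 CPM in AC1903 rats and 3.56 ± 1.31 CPM in WT rats (SD, n = 2 each), a 2.77-fold difference. Its log2 change was 1.47 (SE 0.44), with an adjusted p of 0.354 in edgeR and 0.0991 in DESeq2. TPI1, PGK1 and ENO1 lay above WT in both AC1903 libraries, with log2 changes of 0.30 (SE 0.17), 0.10 (SE 0.17) and 0.29 (SE 0.24) and edgeR adjusted p between 0.540 and 0.852. ALDOA, PKM and HK1 lay below WT in both, at -0.11, -0.19 and -0.06. Over the 14 IDs 6 lay above WT in both AC1903 libraries and 3 below, against 24.2% and 23.4% of all genes, and 9 were positive, against 50.2%. Taking all 4 transgenic libraries against both WT libraries, 5 IDs lay wholly above (both IDs of TPI1, PGK1, the main ID of ENO1 and NDRG1) and 2 wholly below (HK1 and the main ID of PKM). Of all genes tested, 11.3% lay wholly above and 10.2% wholly below. Of the proximal tubule markers 19 of 20 lay above WT in both AC1903 libraries, with a median log2 change of 0.92.

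**Figure D2:**
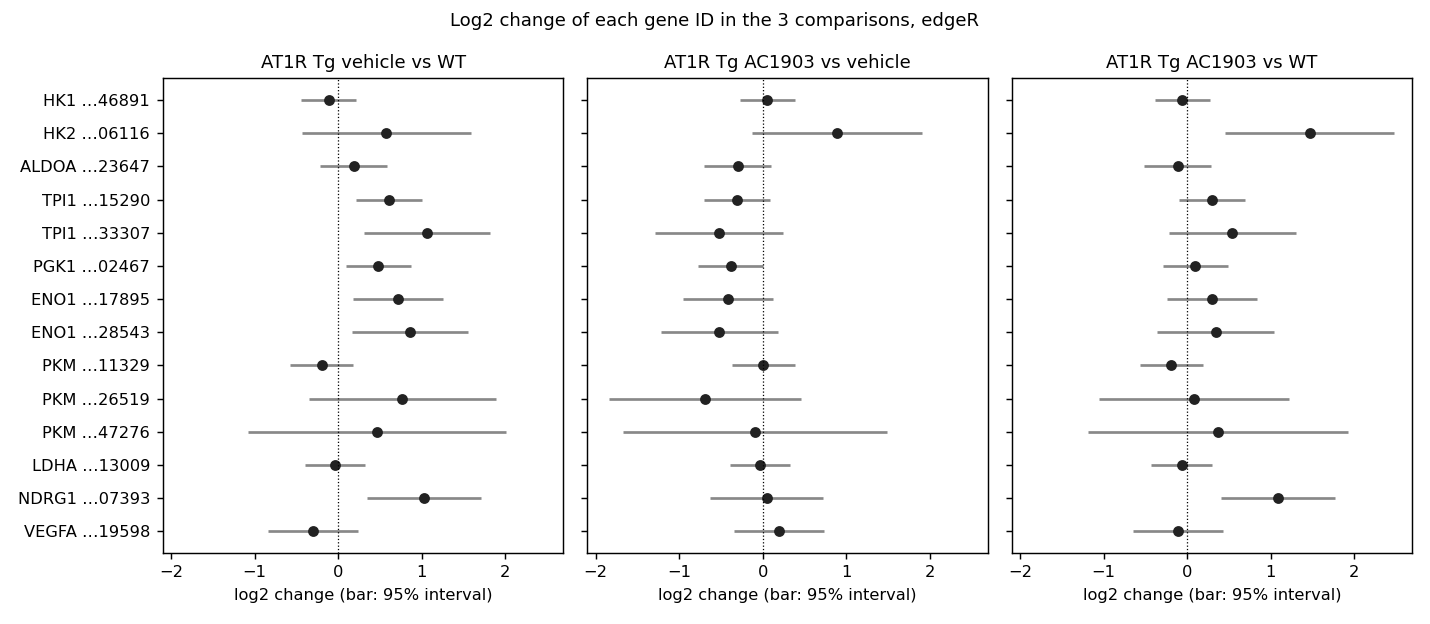
Log2 change of each of the 14 gene IDs in the 3 comparisons, from edgeR; points are estimates and lines 95% intervals, with values above 0 higher in the group named before "vs". In the left panel the intervals of both TPI1 IDs, PGK1, both ENO1 IDs and NDRG1 lie above 0, in the middle panel every interval includes 0, and in the right panel only those of HK2 and NDRG1 lie above 0.

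Between vehicle and WT rats, the glycolytic members with an unadjusted edgeR p under 0.05 were TPI1, PGK1 and ENO1. Along the pathway, these enzymes act after aldolase and before pyruvate kinase. HK2, which acts before aldolase, had a larger log2 change than PGK1, at 0.58 (SE 0.44) against 0.48 (SE 0.17). Of 17 IDs tested on a list of other enzymes of glycolysis and lactate, none was called in edgeR. DESeq2 called 5, all higher, where it called 4.17% of all genes. Among the 5 were 2 of the 4 GAPDH IDs, PKLR and LDHD, which is not itself an enzyme of glycolysis. The other 2 GAPDH IDs, ENSRNOG00000033057 and ENSRNOG00000050630, were not called, at -0.26 and 0.25. At an unadjusted edgeR p under 0.05 there were 6 higher, LDHB among them, and 1 lower, ENO3, and the median log2 change was 0.21. GAPDH (ENSRNOG00000018630), which acts between TPI1 and PGK1, measured 1033 and 1070.2 CPM in AC1903 rats, 1133 and 1617 in vehicle rats and 883 and 821 in WT rats. Its log2 change was 0.69 (SE 0.23), with an adjusted p of 0.256 in edgeR and 0.0248 in DESeq2. Of the upper steps, GPI was at 0.15, and the phosphofructokinases PFKL, PFKM and PFKP at 0.17, 0.21 and -0.51. In AC1903 against vehicle rats, 15 of the 17 IDs were negative, with a median of -0.36, and 2 were positive, beside 47.9% of all genes. PFKP, at 0.57 (SE 0.24), was 1 of those 2, and ENO3 was the other. None was called in edgeR, where PFKP and ENO3 as higher and PKLR as lower had an unadjusted p under 0.05, nor in DESeq2.

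**Figure D3:**
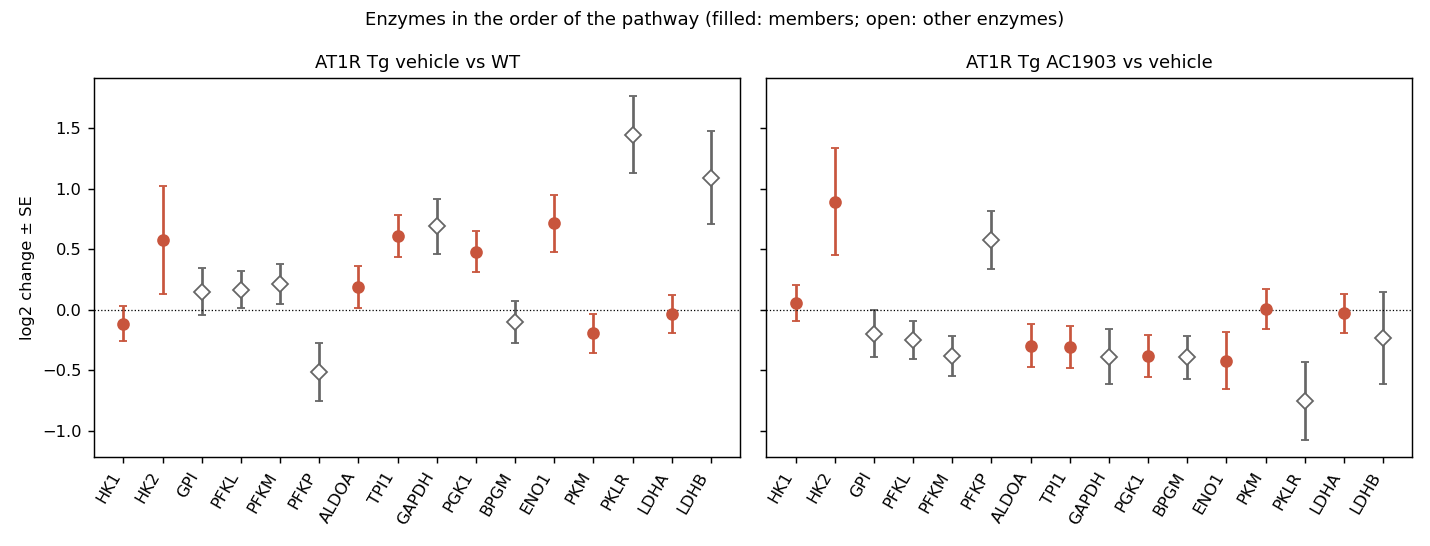
Log2 change (± SE, edgeR) of enzymes of glycolysis in the order in which they act, for AT1R Tg vehicle against WT (left) and AT1R Tg AC1903 against vehicle (right); filled circles are the 8 enzymes described here and open diamonds other enzymes. On the left PKLR and LDHB lie highest of the enzymes plotted, at 1.45 and 1.09; on the right HK2 and PFKP lie above 0 and most others below it.

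The isoenzymes PKLR and LDHB had larger log2 changes from WT than the main ID of any of the 8 enzymes. PKLR, the liver and red cell pyruvate kinase, measured 13.6 and 11.8 CPM in AC1903 rats, 15.0 and 27.8 in vehicle rats and 9.01 and 6.70 in WT rats. Its log2 change between vehicle and WT rats was 1.45 (SE 0.32), with an adjusted p of 0.178 in edgeR and 0.00524 in DESeq2. LDHB, the heart-type lactate dehydrogenase, measured 234 and 176 CPM in AC1903 rats, 141 and 341 in vehicle rats and 135 and 91.5 in WT rats, a log2 change of 1.09 (SE 0.38) with an adjusted p of 0.290 in edgeR and 0.0655 in DESeq2. PKLR and LDHB were each highest in vehicle replicate 2 and lowest in WT replicate 2, as the proximal tubule marker sum was.

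The balance of isoenzymes moved with the same libraries. LDHA made up 40.7 and 47.7% in AC1903 rats, 53.1 and 33.0% in vehicle rats and 53.3 and 66.6% in WT rats of the LDHA and LDHB sum. PKM made up 93.3 and 94.8% in AC1903 rats, 93.4 and 87.4% in vehicle rats and 96.0 and 97.3% in WT rats of the PKM and PKLR sum. Both shares were highest in WT replicate 2 and lowest in vehicle replicate 2, the libraries with the lowest and the highest proximal tubule marker sum. HK2, by contrast, made up 8.06 and 13.6% in AC1903 rats, 8.24 and 4.51% in vehicle rats and 5.05 and 3.05% in WT rats of the hexokinase sum, with vehicle replicate 2 between the WT libraries. These are shares of counts, not of molecules, since transcript lengths were not used.

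**Figure D4:**
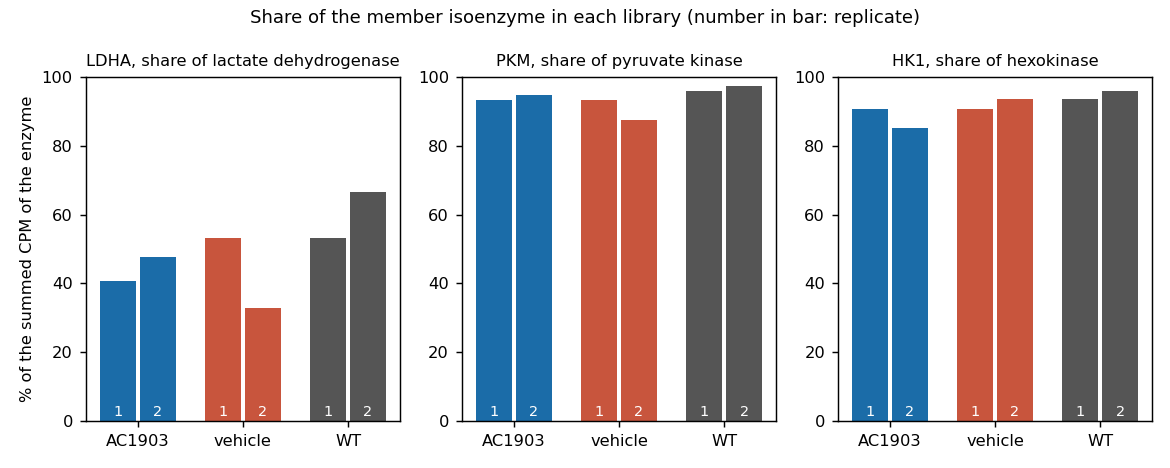
Share of each enzyme's summed CPM held by LDHA (with LDHB), PKM (with PKLR) and HK1 (among the hexokinases measured), in percent, with 1 bar per library in AC1903, vehicle and WT rats; numbers in the bars are replicates. LDHA and PKM have their smallest share in vehicle replicate 2, at 33.0 and 87.4%, and their largest in WT replicate 2.

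Gluconeogenesis is the reverse route that the proximal tubule runs. Of its 6 IDs tested, FBP1, PCK1, PC and SLC37A4 were highest in vehicle replicate 2 and lowest in WT replicate 2, while G6PC3 and PCK2 were not. FBP1, its fructose-bisphosphatase, measured 147 and 134 CPM in AC1903 rats, 165 and 356 in vehicle rats and 97.9 and 45.4 in WT rats. PCK1, which makes phosphoenolpyruvate from oxaloacetate, measured 409 and 336 CPM in AC1903 rats, 329 and 741 in vehicle rats and 257 and 138 in WT rats. Of the 6 IDs, 4 had an unadjusted edgeR p under 0.05 between vehicle and WT rats, all higher, against 8.57% of all genes. DESeq2 called the same 4: FBP1, PCK1, PC and SLC37A4. The median was 1.09. FBP1 and PCK1 are proximal tubule markers as well. Over the whole marker list, 20 of 20 IDs were higher in both vehicle libraries than in both WT libraries, against 20.6% of all genes. The median log2 change was 1.34. DESeq2 called 18 of them, against 4.17% of all genes, and edgeR called none. The part of tubule RNA in the TPI1, PGK1, ENO1 and NDRG1 differences was not tested.

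Across the 6 libraries TPI1, PGK1 and ENO1 followed one another, with Pearson r of 0.95 for TPI1 and PGK1, 0.92 for TPI1 and ENO1 and 0.90 for PGK1 and ENO1. NDRG1 ran against PKM, at -0.92, and TPI1 against VEGFA, at -0.82. These describe 6 libraries that share the same group differences and the same scaling. Among 8234 genes with a symbol and a mean of at least 10 CPM, the 5 most like TPI1 were GPRC5C, SOD1, FHOD3, UQCRH and IMMT (r of 0.985 to 0.989). The 5 most like NDRG1 were PAK2, PIGR, CLDN10, SEC24A and TFCP2L1 (0.989 to 0.996). For VEGFA they were ELOVL7, PRRC2A, ZNF317, INO80 and LUZP1 (0.982 to 0.992). Each set holds the highest of 8234 correlations over 6 libraries, and how high r runs in such a search without any relation was not tested.

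**Figure D5:**
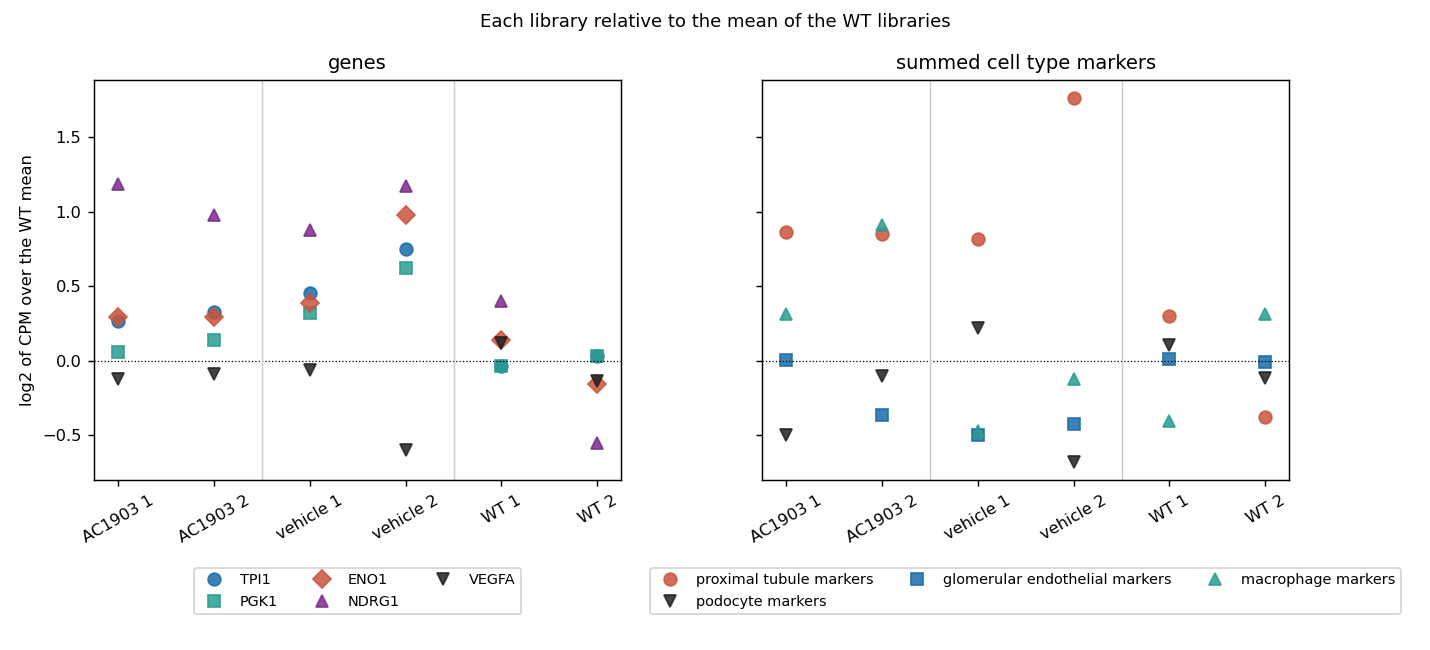
Log2 ratio of each library's CPM to the mean of the WT libraries, for TPI1, PGK1, ENO1, NDRG1 and VEGFA (left) and for the summed proximal tubule, podocyte, glomerular endothelial and macrophage markers (right); 1 point per library. Vehicle replicate 2 is highest for TPI1, PGK1, ENO1 and the proximal tubule markers and lowest for VEGFA and the podocyte markers, while NDRG1 is about equally high in AC1903 replicate 1 and vehicle replicate 2.

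Genes that HIF is known to induce were split evenly between higher and lower. Of 35 tested beyond the members, none was called in edgeR between vehicle and WT rats and 2 in DESeq2, which called 4.17% of all genes. At an unadjusted edgeR p under 0.05 there were 4 higher (CA12, AK4, BNIP3 and ANKRD37) and 2 lower (PPP1R3C and P4HA2), 17 were positive and 18 negative, and the median log2 change was -0.01. The DESeq2 calls were the carbonic anhydrase CA12 and the mitochondrial adenylate kinase AK4. CA12 measured 40.5 and 45.2 CPM in AC1903 rats, 33.8 and 61.9 in vehicle rats and 20.9 and 11.5 in WT rats. Its log2 change between vehicle and WT rats was 1.56 (SE 0.34), and between AC1903 and WT rats 1.41 (SE 0.34), with DESeq2 adjusted p of 0.00215 and 0.0163. AK4 measured 113 and 154 CPM in AC1903 rats, 139 and 296 in vehicle rats and 99.2 and 51.5 in WT rats, a log2 change of 1.53 (SE 0.40) between vehicle and WT rats, and it too was highest in vehicle replicate 2 and lowest in WT replicate 2.

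In AC1903 against vehicle rats none of the 35 was called in edgeR or DESeq2, and 2 had an unadjusted edgeR p under 0.05, both higher. They were BHLHE40, a circadian repressor, at 0.57 (SE 0.20), and P4HA2, a collagen prolyl hydroxylase, at 0.53 (SE 0.19). Other textbook targets of HIF gave no call in the comparisons run. BNIP3, a mitophagy receptor, had a log2 change of 0.54 (SE 0.18) between vehicle and WT rats. ADM, the vasodilator adrenomedullin, measured 40.5 and 52.1 CPM in AC1903 rats, 88.7 and 34.02 in vehicle rats and 69.8 and 75.1 in WT rats, and the vehicle libraries were the highest and the lowest of all 6. KDM3A, a histone demethylase, and EGLN3, an oxygen-sensing prolyl hydroxylase, were at -0.25 and 0.27. The glucose transporter SLC2A1 measured 12.9 and 15.0 CPM in AC1903 rats, 17.1 and 17.4 in vehicle rats and 18.3 and 17.7 in WT rats. It was lowest in AC1903 rats, with a log2 change of -0.30 (SE 0.20) against vehicle (edgeR adjusted p = 0.674). CA9, a carbonic anhydrase often read as a hypoxia marker, stayed at 0.43 to 1.91 CPM and did not pass the filter on low counts.

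The oxygen-sensing machinery showed no call either. Of 14 regulators of HIF, none had an unadjusted edgeR p under 0.05 in any of the 3 comparisons, none was called in DESeq2, and the medians were -0.10 for vehicle against WT, -0.08 for AC1903 against vehicle and -0.14 for AC1903 against WT. HIF1A measured 67.4 and 94.3 CPM in AC1903 rats, 94.1 and 71.4 in vehicle rats and 98.2 and 91.0 in WT rats. EPAS1, which encodes HIF-2α, measured 800.4 and 609 CPM in AC1903 rats, 566 and 607 in vehicle rats and 736 and 614 in WT rats, with both vehicle libraries just below the other 4. HIF is set mainly through protein stability, which these RNA data do not measure. Among 16 IDs of 14 genes of glucose and lactate transport, of the PFKFB enzymes that tune phosphofructokinase and of the enzymes around pyruvate dehydrogenase, DESeq2 called only PDK2, a kinase that restrains pyruvate dehydrogenase. It measured 38.8 and 38.2 CPM in AC1903 rats, 44.7 and 62.1 in vehicle rats and 31.4 and 22.0 in WT rats, a log2 change of 1.00 (SE 0.23) between vehicle and WT rats (edgeR adjusted p = 0.178, DESeq2 0.00971).

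The VEGF receptors were read beside their ligand. KDR, the main signalling receptor, measured 1764 and 1410.5 CPM in AC1903 rats, 1230.4 and 1446 in vehicle rats and 1849 and 1593 in WT rats. FLT1, which binds VEGFA with little signalling, measured 466 and 335 CPM in AC1903 rats, 288 and 313 in vehicle rats and 391 and 326 in WT rats. The log2 change of KDR was -0.36 (SE 0.23) between vehicle and WT rats and 0.25 (SE 0.23) between AC1903 and vehicle rats. None of 8 genes of the family had an unadjusted edgeR p under 0.05 in any comparison, and none was called in DESeq2. Summed glomerular endothelial markers, KDR and FLT1 among them, were 9168 and 7105 CPM in AC1903 rats, 6452 and 6816 in vehicle rats and 9186 and 9074 in WT rats. Of the other NDRG genes, NDRG2 measured 11.3 and 8.87 CPM in AC1903 rats, 5.45 and 6.27 in vehicle rats and 6.06 and 8.54 in WT rats. Its log2 change between vehicle and WT rats was -0.32 (SE 0.31), and between AC1903 and vehicle rats it was 0.78 (SE 0.31), with an edgeR adjusted p of 0.605.

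Several of the enzymes have many processed copies in the rat genome, which bears on how reads are split. RefSeq on GRCr8 names 30 pseudogenes each for LDHA and ENO1, 19 for PKM, 9 for ALDOA, 8 for PGK1 and 3 for TPI1, and none under the names of HK1, HK2, NDRG1 and VEGFA. The estimated counts divide shared reads between copies, so the low IDs of TPI1, ENO1 and PKM are uncertain. They took at most 3.87% of a symbol's counts in any library.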

How the data were processed

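Messenger RNA of rat glomeruli was measured in 6 libraries, 2 per group, with groups and ages read from the sample labels. A stranded mRNA kit was used, per the labels' protocols. The deposited expected counts per gene were made with STAR 2.5.2b and RSEM 1.3.0 on Rnor_5.0, per the submitters' processing notes. The deposited log2 fold changes and adjusted p-values are the authors' own, per the file headers, made with a tool not given in the sources used here. Ages differ within each group, so the libraries came from different rats.

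Expected counts were rounded, filtered with filterByExpr (13426 of 26319 genes kept) and scaled by TMM. edgeR's quasi-likelihood test (edgeR 4.0.16, R 4.3.3) was fitted to all 6 libraries with 3 residual degrees of freedom, two-sided, with Benjamini-Hochberg adjustment over all genes and a threshold of 0.05. The biological coefficient of variation was 23.0%. DESeq2 1.42.0, limma-voom 3.58.1, other scalings and filters, the compared groups alone, a replicate block, age, exclusion of mitochondrially encoded genes and leaving out each library were alternatives. Within a group, the libraries were further apart than counting error allows (chi-square per degree of freedom 19.0 to 92.8), and none was merged. The fitting code was tested on simulated data. Correlations used log2(CPM + 1).

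The genes, the pathway and marker lists and the tests were chosen with earlier results of these data known. Every member is named; from each pathway list the text names part of a fixed set and of the 4 genes of smallest unadjusted p per comparison. Cell type markers were fixed lists. The lists were counted whole, but 1 of their genes is not reported here. Promoters and pseudogene names came from RefSeq tables matched by symbol.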

Additional observations from a re-analysis of the deposited data

How the results depend on the processing

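The count of member IDs called in edgeR was 0 in all 3 comparisons. Between vehicle and WT rats it was 3 with DESeq2 and 4 with no filter on low counts (ENO1 and its copy, the TPI1 copy and NDRG1). Counts with single libraries left out are not given, since such a fit leaves 1 library in a group. Between AC1903 and WT rats it was 1 with DESeq2 and 2 with no filter (HK2 and NDRG1). Left unfiltered, edgeR called 774 of 17364 genes between vehicle and WT rats, and 464 of 17364 between AC1903 and WT rats. The filtered fit called 10 and 5 of 13426 genes. The member count stayed at 0 with limma-voom, the other scalings, the 5 CPM filter, the groups compared alone, age and without mitochondrially encoded genes. With the replicate number as a block it was also 0 in each comparison. Same-numbered libraries deviated from their group means with r of -0.04 (vehicle and WT), -0.01 (AC1903 and WT) and -0.11 (AC1903 and vehicle). With 2 libraries per group, these values cannot decide whether same-numbered rats were paired. A block with the AC1903 numbers crossed, added after seeing the data, also gave 0 calls among the members. Sign changes were seen only for IDs that neither edgeR nor DESeq2 called in the comparison concerned. Between AC1903 and vehicle rats PKM (main ID 0.0067) was -0.0084 in DESeq2 and with its size factors, -0.027 with no filter, -0.020 with the 5 CPM filter, -0.043 with age and -0.11 to 0.088 with libraries left out. With age as a covariate the copies of TPI1, ENO1 and PKM (ENSRNOG00000047276) were 0.080, 0.080 and 1.03, and that PKM copy was 0.12 in limma-voom. LDHA between vehicle and WT rats was 0.0067 with the 5 CPM filter, and the PKM copy ENSRNOG00000047276 was -0.47 with age. Leaving out single libraries gave ranges that include both signs for LDHA (-0.16 to 0.090) and the PKM copy ENSRNOG00000047276 (-0.48 to 1.04) between vehicle and WT rats. Between AC1903 and vehicle rats they did so for HK1 (-0.029 to 0.099), NDRG1 (-0.095 to 0.20), VEGFA (-0.053 to 0.49) and the same PKM copy (-0.67 to 0.84). Between AC1903 and WT rats they did so for the PKM copy ENSRNOG00000026519 (-0.013 to 0.18), LDHA (-0.19 to 0.060) and VEGFA (-0.23 to 0.024). Depth was lowest in the transgenic libraries, where 3 counts are 0.211 to 0.243 CPM of the library total, far under every member except the PKM copies. The cause of these shifts was not tested.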
